A study of Mus musculus with 4 samples.

Results

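The genes described here are 10 extracellular matrix glycoprotein genes of the mouse: the tenascins Tnc, Tnn and Tnxb, the thrombospondins Thbs1, Thbs2, Thbs3 and Thbs4, the fasciclin-domain genes Postn (periostin) and Tgfbi, and Fn1 (fibronectin). They were taken by gene symbol, and all 10 were found among the 15424 genes listed in the deposited table. The tumors grew under the skin of nude mice from transplanted R728T1 cells. Tumors of the shTaz group carried a knockdown of Taz, and control tumors of the shLuc group an shRNA against luciferase. The labels trace R728T1 to an Rb/P53 mouse model, an origin that both groups share, and call the cells non-SMCs without explaining the term. They list 2 samples per group, 4 in all, but the table holds 1 column of FPKM (fragments per length of transcript and per mapped fragments) for each group. There is therefore no spread between samples, and the values below carry no SD and no test. The labels give no age of the mice, do not say whether animals were pooled and do not state which sequence the Taz shRNA targets.

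The proteins of these genes are secreted and bind cells and matrix fibers. Fibronectin is assembled by integrins into fibrils on which other matrix proteins are laid down. Tenascins, thrombospondins, periostin and the Tgfbi protein are mostly called matricellular: they shape how cells attach, migrate and respond to growth factors more than they bear load, and many are abundant in wounds and in tumor stroma. Nude mice lack mature T cells but keep fibroblasts, vessels and other host cells. Host and tumor cells are both murine, so a transcript in such a tumor can come from either, and fewer cells of a type cannot be told apart from less RNA per cell.

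Wwtr1, which encodes the Hippo pathway coactivator TAZ, was at 15.1 FPKM in the shTaz column and 23.4 FPKM in the shLuc column. Taz, the older symbol of the unrelated mitochondrial gene Tafazzin, was at 9.50 FPKM in shTaz and 13.7 FPKM in shLuc. Yap1 was at 12.0 FPKM in shTaz and 8.59 FPKM in shLuc. Most of the 9 neuroendocrine markers of the labelled cell type, small cell lung cancer, were not listed or scarce, and 3 averaged 1 FPKM or more. Chga, Calca and Neurod1 are not listed in the table. Syp was at 0.447 FPKM in shTaz and 0.557 FPKM in shLuc, and Insm1 at 0 FPKM in shTaz and 0.169 FPKM in shLuc. Ncam1 was well expressed, at 43.8 FPKM in shTaz and 39.8 FPKM in shLuc. Nkx2-1 (0.939 FPKM in shTaz and 2.51 FPKM in shLuc) and Uchl1 (1.51 FPKM in shTaz and 10.1 FPKM in shLuc) also averaged 1 FPKM or more. Both were lower in shTaz, where Nkx2-1 was itself under 1 FPKM.

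Differences below are log2((shTaz FPKM + 1) / (shLuc FPKM + 1)), a scale that shrinks the difference of genes near or below 1 FPKM, and a difference of 1 or more in size is called 2-fold. Of the 10 genes, 7 were lower and 3 higher in the shTaz column by sign alone, and the signs of Thbs1 and Thbs3 turned under other settings. Of the 9 that averaged 1 FPKM or more over both columns, 3 were 2-fold lower (Tnn, Postn and Thbs4), where the background over all 11650 such genes was 3.25%, and none was 2-fold higher, where the background was 3.96%. Tnn passed that filter through the shLuc column alone, and without it 2 of the remaining genes were 2-fold lower. The median difference of the 9 genes was -0.57, against 0.12 over all genes, and it was -0.74 over all 10 genes with no filter. The genes were chosen as families and with earlier results of these data known, so these counts describe them and are not a test.

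**Figure D1:**
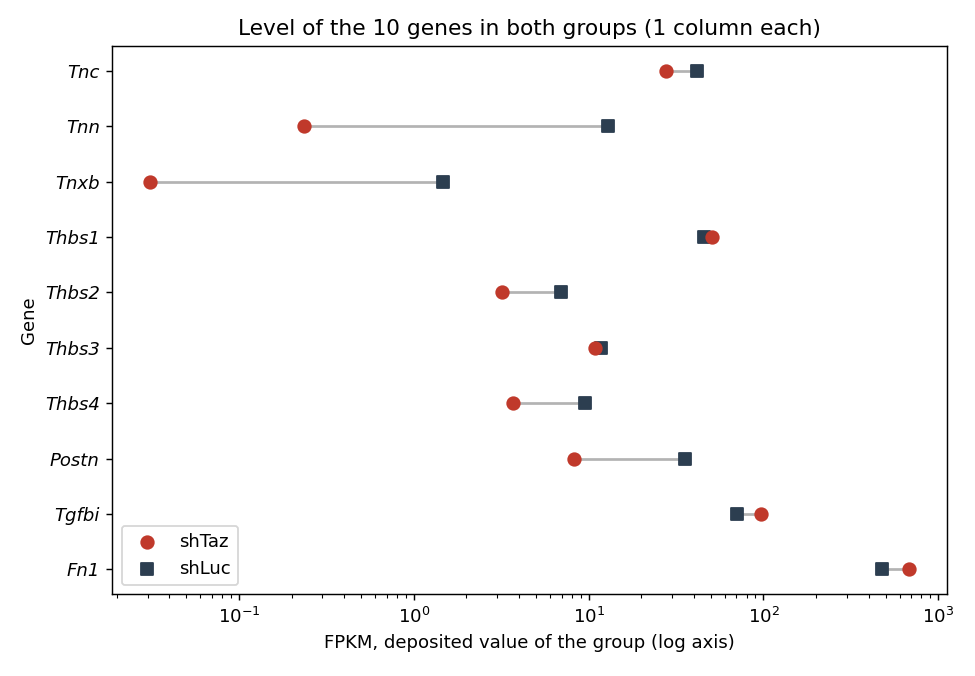
Deposited FPKM (horizontal log axis) of the 10 genes (rows) in the shTaz column (red circles) and the shLuc column (dark squares), 1 value per group and no error. Tnn and Tnxb are far apart, at 0.235 and 0.0311 FPKM in shTaz against 12.9 and 1.46 FPKM in shLuc, while Thbs1 and Thbs3 lie almost on top of each other.

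The tenascins were the family with the widest separation. They are large proteins whose subunits share epidermal growth factor-like repeats, fibronectin type III domains and a fibrinogen-like globe. Tnn encodes tenascin N, also called tenascin W, which is known from developing bone and from the stroma of tumors. It was at 0.235 FPKM in the shTaz column and 12.9 FPKM in the shLuc column, a 54.7-fold ratio of the deposited values. Its difference was -3.49, with 0.0773% of all genes lower, and it ranged over the other settings from -5.27 with a pseudocount of 0.1 to -3.47 without the GC trend. It ranked 13533 of 15424 genes by level in shTaz and 3940 in shLuc, so it was among the scarcely detected genes in one column and among the moderately expressed ones in the other.

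Tnxb encodes tenascin X, which lies along collagen fibers in skin and other loose connective tissue and whose loss causes a form of Ehlers-Danlos syndrome in humans. It was at 0.0311 FPKM in shTaz and 1.46 FPKM in shLuc. Its mean of 0.747 FPKM was under the filter, so it is outside the counts over 9 genes. The deposited values differ 47.0-fold, but the log2 difference was only -1.26 with the pseudocount of 1 and -3.57 with a pseudocount of 0.1. At such levels, and with the depth unknown, the size of the ratio is uncertain.

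Tnc encodes tenascin C, the most studied tenascin, which is induced in wounds, inflammation and tumor stroma. It was at 27.7 FPKM in shTaz and 41.6 FPKM in shLuc, or 66.4% of the control value, with a difference of -0.57. Tnc was the main tenascin in both columns, with 99.0% of the summed tenascin FPKM in shTaz and 74.4% in shLuc. The tenascin sum was 27.9 FPKM in shTaz and 56.0 FPKM in shLuc. The ratio of Tnc to Tnn, which does not depend on the scaling of a column, was 118 in shTaz and 3.23 in shLuc.

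Among the thrombospondins the difference lay in the less abundant genes. Thbs1 and Thbs2 encode the trimeric thrombospondins, which bind CD36 and CD47 and restrain the growth of vessels, and the Thbs1 protein also activates latent TGF-beta. Thbs1 was at 50.4 FPKM in shTaz and 45.9 FPKM in shLuc, a difference of 0.13 that is close to the median of all genes. Its sign turned under 4 of the other settings, so no direction is given for it. Thbs2, which is also needed for normal assembly of collagen fibrils in mouse skin, was at 3.19 FPKM in shTaz and 6.92 FPKM in shLuc. Its difference was -0.92, just short of 2-fold, and it lay past 2-fold in 6 of the 9 other settings, at -1.03 to -1.26.

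Thbs3 and Thbs4 encode pentameric thrombospondins. Thbs3, which is known from cartilage and growing bone, was at 10.8 FPKM in shTaz and 11.8 FPKM in shLuc, a difference of -0.11 whose sign also turned in a pair of settings. It shares 318 of its 4823 exonic bases with Mtx1 on the opposite strand, which was at 17.8 FPKM in shTaz and 26.9 FPKM in shLuc. The strand setting of the counting is not given in the sources used here, so reads over the shared bases cannot be assigned with certainty. Thbs4, a protein of tendon, muscle and injured tissue, was at 3.68 FPKM in shTaz and 9.56 FPKM in shLuc, or 38.5% of the control value. Its difference was -1.17, and it stayed past 2-fold in each of the 9 other settings run, from -1.35 to -1.06.

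Thbs1 made up 74.0% of the summed thrombospondin FPKM in shTaz and 61.9% in shLuc, while the sum itself was similar, at 68.1 FPKM in shTaz and 74.2 FPKM in shLuc. The ratio of Thbs1 to Thbs2 was 15.8 in shTaz and 6.64 in shLuc, and that of Thbs3 to Thbs4 was 2.94 in shTaz and 1.23 in shLuc. Within each pair of like architecture the more abundant gene was thus closer to the same level in both columns. Comp, the fifth thrombospondin and a cartilage matrix protein, was scarce, at 0.739 FPKM in shTaz and 1.64 FPKM in shLuc.

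The fasciclin-domain genes went in opposite directions. Periostin, encoded by Postn, is a TGF-beta-induced protein of fibroblasts that binds collagen I, fibronectin and tenascin C and promotes collagen crosslinking. It was at 8.29 FPKM in shTaz and 35.5 FPKM in shLuc, or 23.3% of the control value, with a difference of -1.97 and only 0.567% of all genes lower. Tgfbi, a paralog that is likewise induced by TGF-beta and binds collagen and integrins, was at 97.4 FPKM in shTaz and 70.5 FPKM in shLuc. Its difference of 0.46 was short of 2-fold, with 74.8% of all genes lower. The ratio of Tgfbi to Postn was 11.7 in shTaz and 1.99 in shLuc.

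Fn1 was by far the most abundant of the 10 genes. It was at 679 FPKM in shTaz and 476 FPKM in shLuc, ranking 89 of 15424 genes in shTaz and 145 in shLuc. Its difference of 0.51 was short of 2-fold, with 78.0% of all genes lower. Its overlapping antisense transcript Apol7d shares 292 of the 11685 exonic bases of Fn1 and was not analysed here. Fn1 made up 77.1% of the summed FPKM of the 10 genes in shTaz and 66.9% in shLuc. That sum was 880 FPKM in shTaz and 713 FPKM in shLuc, but without Fn1 the other 9 genes summed to 202 FPKM in shTaz and 236 FPKM in shLuc.

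The partners of these proteins can be set beside Fn1 within each column. The ratio of Fn1 to Tnc was 24.5 in shTaz and 11.4 in shLuc, and that of Fn1 to Postn was 81.8 in shTaz and 13.4 in shLuc. Against the collagen I chain gene Col1a1, Fn1 stood at a ratio of 0.807 in shTaz and 0.347 in shLuc. These partners were chosen after their values were seen, and other ratios did not go this way. The ratio of Fn1 to Tgfbi was 6.97 in shTaz and 6.76 in shLuc, that of Fn1 to the fibulin gene Fbln2 was 2.25 in shTaz and 2.22 in shLuc, and that of Fn1 to Lox was 11.5 in shTaz and 15.3 in shLuc.

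**Figure D2:**
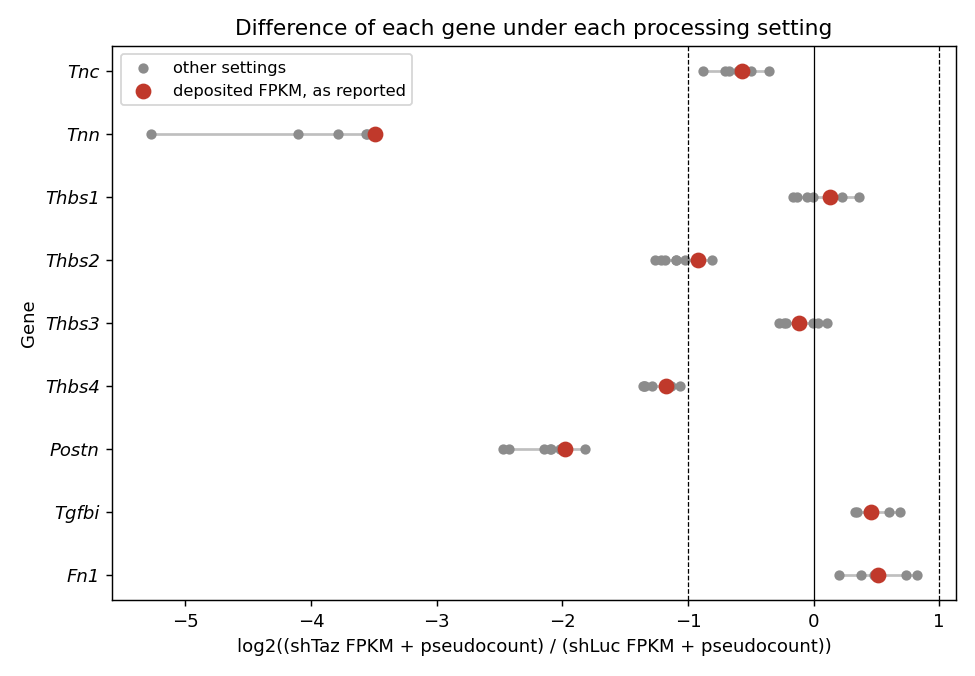
Difference of each gene between shTaz and shLuc (horizontal axis, log2 scale) with the deposited FPKM (red) and under the 9 other settings (grey, joined by a line from the lowest to the highest), with dashed lines at 2-fold. Tnn, Postn and Thbs4 lie left of the lower dashed line under every setting shown, Tgfbi and Fn1 right of 0, and Thbs1 and Thbs3 on both sides of 0. Tnxb is not drawn, because its mean is under the filter.

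The promoters of the separated genes are shown because they are the sequence context closest to those differences. RefSeq starts (GRCm38.p6, the assembly of mm10) were found for 8 of the 10 genes, in 10 windows. Thbs1 and Fn1 had no window, so no motif was searched for in either. Each sequence is the 250 bases before the start, 5′ to 3′ on the strand of the gene, and capitals mark the motifs searched on both strands. They were CATTCC, the core bound by TEAD factors, through which TAZ acts on DNA, then TGANTCA, the AP-1 element, and TATAAA, the TATA box. Tnn, at chr1:160153576-160153825 on the minus strand, Thbs4, at chr13:92794819-92795068 on the minus strand, and Postn, at chr3:54360857-54361106 on the plus strand, were lower in shTaz, and Tgfbi, at chr13:56609336-56609585 on the plus strand, was not.
Tnn: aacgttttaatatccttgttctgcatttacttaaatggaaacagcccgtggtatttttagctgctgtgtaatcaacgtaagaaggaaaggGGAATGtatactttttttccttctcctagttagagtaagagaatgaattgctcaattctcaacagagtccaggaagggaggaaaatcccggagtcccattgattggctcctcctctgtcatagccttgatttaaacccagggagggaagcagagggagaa
Thbs4: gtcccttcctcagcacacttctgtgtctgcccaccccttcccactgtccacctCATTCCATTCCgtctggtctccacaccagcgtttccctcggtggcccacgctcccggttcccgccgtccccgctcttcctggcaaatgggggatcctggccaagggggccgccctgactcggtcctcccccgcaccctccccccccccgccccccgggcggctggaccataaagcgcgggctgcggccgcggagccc
Postn: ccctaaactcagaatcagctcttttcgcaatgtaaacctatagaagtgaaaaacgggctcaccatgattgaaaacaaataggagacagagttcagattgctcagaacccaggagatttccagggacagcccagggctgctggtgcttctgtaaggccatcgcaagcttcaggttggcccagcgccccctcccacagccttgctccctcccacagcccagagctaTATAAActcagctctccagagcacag
Tgfbi: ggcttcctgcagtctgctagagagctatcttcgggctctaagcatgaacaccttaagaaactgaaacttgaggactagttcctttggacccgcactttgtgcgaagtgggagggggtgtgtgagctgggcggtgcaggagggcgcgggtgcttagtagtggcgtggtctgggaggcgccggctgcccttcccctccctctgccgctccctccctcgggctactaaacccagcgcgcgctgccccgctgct

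CATTCC occurred in 2 of the 10 windows, those of Tnn and Thbs4, and in 12.6% of 32851 such windows of all genes. In Tnn it was on the opposite strand, read as GGAATG, and began 160 bases before the start. In Thbs4 a pair of copies that share 1 base began 197 and 192 bases before the start. Postn has a pair of annotated starts. The window printed, of the downstream start, holds TATAAA beginning 26 bases before the start and neither other motif, and the window of the upstream start, at chr3:54359017-54359266, holds none of the motifs. TATAAA occurred in 4 of the 10 windows and in 12.4% of all windows, though both windows of Tnc overlap and hold the same copy. TGANTCA was found in the Tnxb window alone and in 6.75% of all windows. The Tgfbi window holds none of the motifs. Base composition also varied: the windows of Tnn, Thbs4, Postn and Tgfbi were 42.0%, 70.8%, 52.0% and 62.4% GC, with a median of 52.4% over all windows.

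In the genome the 10 genes do not form a cluster. On mm10 with GENCODE M21, counted from 1 and with the strand in parentheses, Fn1 (Entrez 14268) spans chr1:71585520-71653200 (minus) and Tnn (Entrez 329278) spans chr1:160085029-160153580 (minus). Postn (Entrez 50706) spans chr3:54361109-54391037 (plus) and Thbs3 (Entrez 21827) spans chr3:89215180-89226837 (plus). Tgfbi (Entrez 21810) spans chr13:56609523-56639562 (plus) and Thbs4 (Entrez 21828) spans chr13:92751590-92794818 (minus). Thbs2 (Entrez 21826) spans chr17:14665500-14694235 (minus) and Tnxb (Entrez 81877) spans chr17:34670535-34719815 (plus). Thbs1 (Entrez 21825) spans chr2:118111876-118127133 (plus) and Tnc (Entrez 21923) spans chr4:63959785-64047015 (minus).

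Across all genes the difference ran with the GC content of the transcript (Spearman correlation -0.58 over 11105 genes, which share both columns), and the GC content of each gene is given here for that reason. The 10 transcripts ranged from 44.1% GC in Postn to 60.7% in Tnxb, and the median over all genes was 50.7%. Tnn and Fn1 both had 53.5% GC, Thbs4 had 53.9% and Tgfbi 52.9%. With both trends removed Postn was at -2.47, Tnn was at -3.56, Thbs2 at -1.26, Thbs4 at -1.18, Tnc at -0.67, Tgfbi at 0.43 and Fn1 at 0.48. The part of GC content in these differences was not tested.

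**Figure D3:**
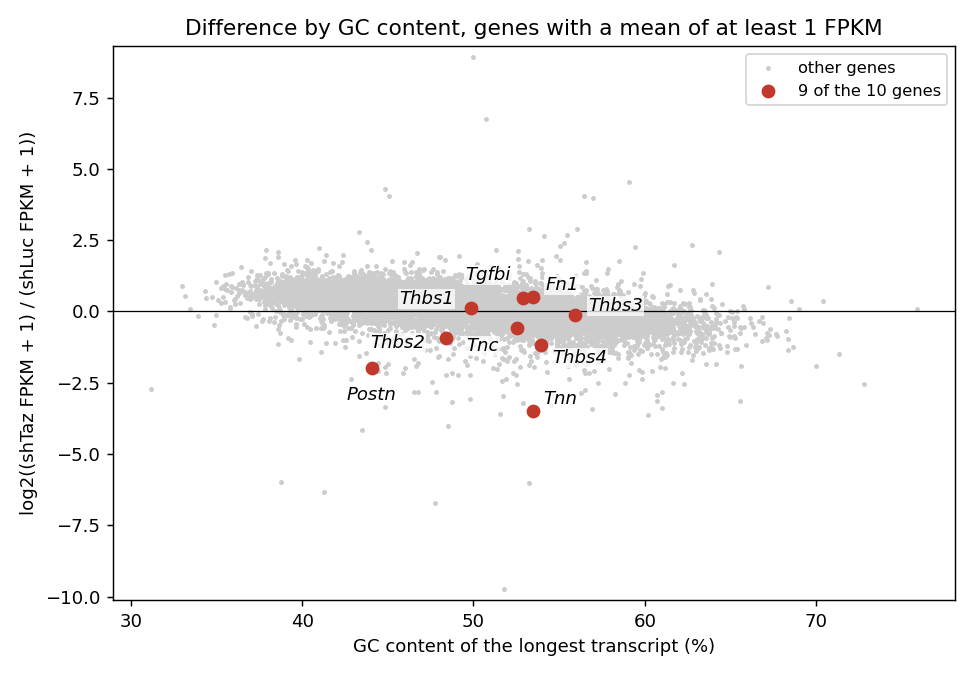
Difference between shTaz and shLuc (vertical axis, log2 scale) against transcript GC content in percent (horizontal axis) for genes that averaged 1 FPKM or more and have a known transcript, with 9 of the 10 genes in red and named. Tnn is at 53.5% GC and -3.49, Fn1 at 53.5% and 0.51, and Postn at 44.1% and -1.97.

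Of 20 receptor genes for these proteins, 15 averaged 1 FPKM or more. Of these, 0 were 2-fold higher, where 3.96% of all genes were, and 0 were 2-fold lower, where 3.25% were, which for 15 genes is near the share of all genes. Itga4, an integrin alpha chain that binds fibronectin, was just under the filter, at 1.64 FPKM in shTaz and 0.324 FPKM in shLuc, a difference of 0.99. Among the 15 the largest differences of the deposited values were those of Itgav, an alpha chain of integrins that bind fibronectin, periostin and tenascin C, at 12.8 FPKM in shTaz and 7.63 FPKM in shLuc, and of Cacna2d1, a calcium channel subunit that binds thrombospondins, at 3.15 FPKM in shTaz and 2.05 FPKM in shLuc. Their differences were 0.68 and 0.44, and 0.14 and -0.18 with the GC and length trends removed. The chains of the main fibronectin receptor, Itga5 (33.5 FPKM in shTaz and 33.2 FPKM in shLuc) and Itgb1 (83.3 FPKM in shTaz and 67.4 FPKM in shLuc), were well expressed in both columns. The thrombospondin receptor Cd47 was at 21.9 FPKM in shTaz and 24.7 FPKM in shLuc, while Cd36 was scarce, at 1.22 FPKM in shTaz and 1.51 FPKM in shLuc. With both trends removed Cd47 was at -0.76 instead of -0.17 and Cd36 at -0.87 instead of -0.18, and the difference of Tlr4, a receptor of tenascin C, was -0.44 instead of 0.24. The list median was 0.05 and turned negative under 4 settings.

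Other secreted matrix glycoproteins were split. Of 29 genes chosen, 28 were found in the table and 24 averaged 1 FPKM or more. Of these, 5 were 2-fold lower, where 3.25% of all genes were, and 2 were 2-fold higher, where 3.96% were. Matn4, a matrilin, was at 0.186 FPKM in shTaz and 11.5 FPKM in shLuc. Fbln1, a fibulin that binds fibronectin, was at 2.52 FPKM in shTaz and 10.9 FPKM in shLuc, and Smoc2, a calcium-binding matricellular protein, at 0.839 FPKM in shTaz and 4.77 FPKM in shLuc. Matn4 and Smoc2, like Tnn, passed the filter through the shLuc column alone. Spon2, at 6.19 FPKM in shTaz and 17.4 FPKM in shLuc, was also 2-fold lower. So was Igfbp7, the most abundant of the 5, at 606 FPKM in shTaz and 1299 FPKM in shLuc. The difference of Igfbp7 was -1.10, but -0.60 with the GC and length trends removed. Edil3, an integrin ligand, was higher, at 9.07 FPKM in shTaz and 2.91 FPKM in shLuc. Its difference of 1.37 became 0.64 with the GC and length trends removed. Nid2, a basement membrane nidogen, was at 22.4 FPKM in shTaz and 9.42 FPKM in shLuc, a difference of 1.17 that was 1.16 with both trends removed. The list median was -0.28.

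Matrix partners and processing enzymes lay mostly on the lower side. Of 16 genes 15 had values under the median difference of 0.12. Of the 16, 3 were 2-fold lower, where 3.25% of all genes were, and 0 were 2-fold higher, where 3.96% were. The 3 were the proteoglycan gene Dcn (1.85 FPKM in shTaz and 13.8 FPKM in shLuc), the protease gene Mmp9 (45.0 FPKM in shTaz and 125 FPKM in shLuc) and Col1a2, a chain of collagen I (138 FPKM in shTaz and 334 FPKM in shLuc). Bmp1, whose protease works with periostin in the activation of lysyl oxidase, was at 44.4 FPKM in shTaz and 58.2 FPKM in shLuc. Lox, the lysyl oxidase gene itself, was at 59.0 FPKM in shTaz and 31.2 FPKM in shLuc, the gene above the median. The list median was -0.58, close to the -0.57 of the tenascins, thrombospondins, periostin and fibronectin, although Dcn, Col1a1, Col1a2 and Col3a1 stand in the fibroblast list as well.

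TGF-beta induces Postn, Tgfbi, Tnc and Fn1, so its signalling genes were set beside them. None of the 13 was 2-fold different, where 3.96% of all genes were 2-fold higher and 3.25% were 2-fold lower. For 13 genes that is near the share of all genes. By the deposited values the receptor genes Tgfbr1, at 7.07 FPKM in shTaz and 3.22 FPKM in shLuc, and Tgfbr3, at 5.98 FPKM in shTaz and 3.32 FPKM in shLuc, differed most. Their differences were 0.93 and 0.69, and 0.30 and 0.36 with the GC and length trends removed. Ltbp1 (0.57), Smad7 (0.57) and Tgfb2 (-0.57) then differed more. Of the ligand genes, Tgfb1 was at 84.9 FPKM in shTaz and 96.7 FPKM in shLuc, a difference of -0.19 that turned to 0.32 with the GC and length trends removed. Tgfb3 was at 62.1 FPKM in shTaz and 76.1 FPKM in shLuc. The list median was 0.33, but 0.14 with both trends removed, 0.02 without the length trend and 0.03 when the filter was a mean of 5 FPKM.

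**Figure D4:**
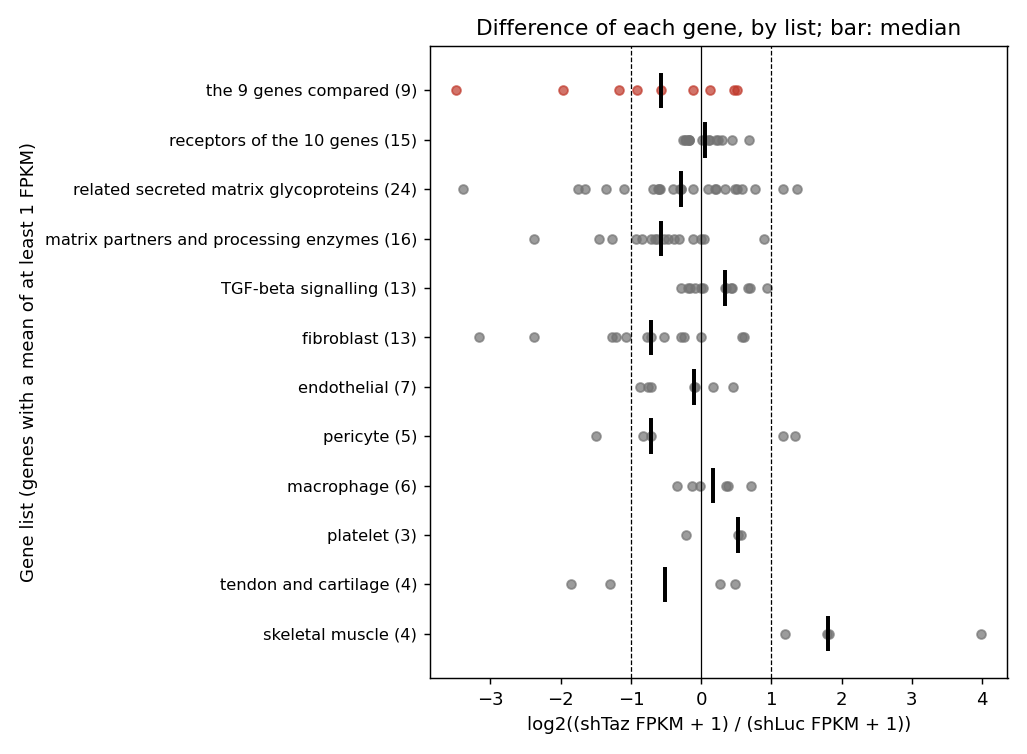
Difference between shTaz and shLuc (horizontal axis, log2 scale) of each gene averaging 1 FPKM or more, in rows by list with the number of genes in parentheses, with black bars at the list medians and dashed lines at 2-fold. The 15 receptor genes lie within 2-fold, while the 9 genes described here spread from -3.49 to 0.51.

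Markers of cell types that make these proteins moved in several directions, and their part in the results was not tested. Fibroblast markers were lower as a list, with a median of -0.71 over the 13 that averaged 1 FPKM or more. Of these, 5 were 2-fold lower, where 3.25% of all genes were, and 0 were 2-fold higher, where 3.96% were. Dpt was at 1.16 FPKM in shTaz and 18.4 FPKM in shLuc, and Pi16 at 2.87 FPKM in shTaz and 8.00 FPKM in shLuc. Pdgfra was at 13.5 FPKM in shTaz and 8.75 FPKM in shLuc, and Pdpn at 10.7 FPKM in shTaz and 6.68 FPKM in shLuc, on the other side. All 14 markers summed to 1442 FPKM in shTaz and 2233 FPKM in shLuc, and none was listed at 0. Col3a1 was at 371 FPKM in shTaz and 372 FPKM in shLuc, so the list did not move as a block.

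For Thbs4 and Tnc, which tendon also expresses, Scx, a tendon transcription factor gene, was at 18.8 FPKM in shTaz and 70.9 FPKM in shLuc, and the 4 listed tendon and cartilage markers summed to 118 FPKM in shTaz and 160 FPKM in shLuc. Without Scx the other 3 summed to 99.4 FPKM in shTaz and 89.0 FPKM in shLuc, with Col2a1 lower, at 5.40 FPKM in shTaz and 14.7 FPKM in shLuc, and Sox9 (30.1 FPKM in shTaz and 21.3 FPKM in shLuc) and Acan (63.9 FPKM in shTaz and 52.9 FPKM in shLuc) higher. The difference of Scx was -1.86, but -1.09 with the GC and length trends removed. That of Col2a1 was -1.30, but -0.91 with both trends removed. The 5 skeletal muscle markers were on the other side, summing to 30.4 FPKM in shTaz and 2.76 FPKM in shLuc. The 4 that averaged 1 FPKM or more, Acta1, listed at 0 in shLuc, Mylpf, Tnnt3 and Ckm, were 2-fold higher, where 3.96% of all genes were. Of these, Acta1, Mylpf and Ckm passed the filter through the shTaz column alone. Myh4, also listed at 0 in shLuc, was at 0.189 FPKM in shTaz, under the filter. For Thbs1, a major protein of platelets, the 5 listed platelet markers summed to 67.7 FPKM in shTaz and 48.7 FPKM in shLuc. Most of that was Pf4, at 63.4 FPKM in shTaz and 43.8 FPKM in shLuc. Ppbp was at 1.71 FPKM in shTaz and 0.829 FPKM in shLuc. Itga2b was slightly lower, at 2.55 FPKM in shTaz and 3.14 FPKM in shLuc, and Gp1ba and Gp9 were listed at 0 in shTaz. Endothelial markers had a median of -0.10 over 7 genes, macrophage markers 0.17 over 6 and pericyte markers -0.71 over 5. Their sums were 88.6, 1800 and 19.1 FPKM in shTaz against 133, 2151 and 15.7 FPKM in shLuc. Most of the macrophage sum was C1qa, at 1470 FPKM in shTaz and 1868 FPKM in shLuc. Its difference was -0.35, but 0.23 with the GC and length trends removed. Of the other macrophage markers Csf1r, Mrc1 and Adgre1 were higher, and Cd68 and Cd14 slightly lower. The members that differed most were Plvap (-0.88) and Cldn5 (-0.76) of endothelium and Mrc1 (0.71) and Csf1r (0.39) of macrophages. Among the 5 pericyte markers Notch3 (-1.50) was 2-fold lower, where 3.25% of all genes were. Des (1.34) and Rgs5 (1.16) were 2-fold higher, where 3.96% of all genes were. Notch3 passed the filter through the shLuc column alone and Des through the shTaz column alone. With the GC and length trends removed Plvap was at -0.44, Cldn5 at -0.24, Mrc1 at 0.15 and Csf1r at 0.37. Notch3 was then at -1.20, Des at 1.48 and Rgs5 at 0.54. Of keratinocyte markers Krt14 was at -0.41 and Krt10 at 0.38.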

How the data were processed

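RNA of subcutaneous tumors was sequenced for 4 labelled samples, 2 per group. The authors deposited FPKM values for 15424 genes in 1 column per group, whose heading is the description that both samples of that group have. How the 2 samples of a group became 1 column is not stated. Trim Galore, TopHat and the build mm10 are named, per the submitters' processing notes. Versions, roles, FPKM program, annotation, strand setting and depth are not given in the sources used here. Low FPKM values multiplied by transcript length did not fall on whole-read steps: 24.6% of 772 shTaz and 24.0% of 891 shLuc values under 0.2 FPKM lay within 0.1 of the best step, where 20% would for a single step by chance. No counting interval is therefore given.

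Differences on the log2 scale used a pseudocount of 1 and the 11650 genes that averaged 1 FPKM or more. No test was run and no gene was chosen by a p-value. Transcript length and GC content were those of each gene's longest transcript in GENCODE M21, of protein-coding genes the longest coding one, for 95.3% of these genes. Trends were removed with lowess (span 0.3, statsmodels 0.14.6), first GC content and then length. The procedure was run on simulated data with a known GC trend but no length trend, so removal of a length trend was not tested. The genes, the lists and the motifs were chosen with earlier results of these data known. Of each list the text names up to 4 genes past 2-fold, or else the 2 that differed most, except for some that are not reported here, and other list genes were chosen after their values were seen. Alternatives were a pseudocount of 0.1, the filter left off or set to a mean of 5 FPKM, scaling by median ratios or by quantiles, and taking out the trend with length, with GC content or with both. Scaling the columns to an equal sum was added after seeing the data.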

Additional observations from a re-analysis of the deposited data

How the results depend on the processing

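Over the settings run, Tnn, Postn and Thbs4 stayed 2-fold lower, Tnc lower, and Tgfbi and Fn1 higher in shTaz, all of them in the same direction. Tnc ranged from -0.88 to -0.36, Tgfbi from 0.33 to 0.69 and Fn1 from 0.20 to 0.82. Thbs2 passed 2-fold with a pseudocount of 0.1 (-1.09), scaling by median ratios (-1.03) or quantiles (-1.10), and without the trend in length (-1.21), in GC content (-1.18) or in both (-1.26). Thbs1 turned negative with median-ratio scaling (-0.00086) and without the trend in length (-0.16), in GC content (-0.051) or in both (-0.13). Thbs3 turned positive without the GC trend (0.038) and with columns scaled to an equal sum (0.10). The cause was not tested. The median of the 9 genes, or of 10 where Tnxb entered, ranged from -0.88 to -0.50. In each setting 3 or 4 genes were 2-fold lower and 0 were 2-fold higher. Over all genes 3.25% were 2-fold lower and 3.96% higher with the deposited FPKM and a pseudocount of 1. Counts over all genes under the other settings are given below.

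The receptor median turned negative with median-ratio scaling (-0.087) and without the trend in length (-0.13), in GC content (-0.068) or in both (-0.053). Genes 2-fold higher numbered 1 in the receptor list and 1 among matrix partners with columns scaled to an equal sum, and 1 in the TGF-beta list with that scaling or a pseudocount of 0.1. Among the related glycoproteins 1 was 2-fold higher without either trend or both, and 6 matrix partners were 2-fold lower without the length trend. The endothelial median turned to 0.12 with columns scaled to an equal sum, and the pericyte median to 1.16 with the filter at 5 FPKM. Cacna2d1 turned to -0.12 without the GC trend and -0.18 without both.

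Over all 11650 genes 461 were 2-fold higher and 379 lower, and 996 and 548 with a pseudocount of 0.1. The split was 523 and 459 of 15424 genes with the filter off, and 219 and 215 of 7318 with the filter at 5 FPKM. Scaling by median ratios gave 307 and 497 of 11651 genes, and scaling by quantiles 288 and 473 of 11655. Among 11105 genes it was 303 and 395 without the length trend, 160 and 338 without the GC trend, and 187 and 288 without both. With columns scaled to an equal sum it was 1633 and 444 of 12849 genes. The median of all genes was 0.34 with that last scaling and -0.0014 with median-ratio scaling. No paired analysis was possible because the table holds 1 column per group, and for the same reason no replicate could be left out. Depth limits Tnxb and Tnn most, since both were under 0.5 FPKM in shTaz.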

Other observations

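The nearest protein-coding genes on either side were looked at for each of the 10 genes, after the values were seen. A pair on chromosome 17 were 2-fold lower, where 3.25% of all genes averaging 1 FPKM or more were. The others listed were within 2-fold on the log2 scale used here. That scale shrinks differences at low levels, and several neighbors, such as Fsip1 and Wdr27, were under 1 FPKM in both columns. By the deposited values alone Muc1, next to Thbs3 (0.717 FPKM in shTaz and 1.72 FPKM in shLuc), was more than 2-fold lower. Rasgrp1, next to Thbs1 (1.25 FPKM in shTaz and 0.621 FPKM in shLuc), was more than 2-fold higher. Next to Fn1, Atic was at 29.2 FPKM in shTaz and 31.5 FPKM in shLuc, and next to Tnn, 4930523C07Rik at a distance of 4821 bases was at 2.02 FPKM in shTaz and 2.70 FPKM in shLuc and Mrps14 at 41635 bases on the other side was at 10.9 FPKM in shTaz and 9.34 FPKM in shLuc. Both genes that flank Thbs4 were slightly higher, with Serinc5 at 1.83 FPKM in shTaz and 1.41 FPKM in shLuc and Mtx3 at 2.67 FPKM in shTaz and 1.81 FPKM in shLuc.

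At both lower genes of chromosome 17 a neighbor was lower as well. C4b, a complement gene 8565 bases beyond Tnxb, was at 3.19 FPKM in shTaz and 8.93 FPKM in shLuc, a difference of -1.24. Smoc2, which lies 260710 bases from Thbs2 and is itself a matricellular gene, was at 0.839 FPKM in shTaz and 4.77 FPKM in shLuc, a difference of -1.65. Atf6b, on the other side of Tnxb, was at 26.9 FPKM in shTaz and 37.4 FPKM in shLuc.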
